A study of Mus musculus with 15 samples.

Results

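The high mobility group (HMG) proteins and the IGF2BP oncofetal RNA binders were followed across all 15 libraries as 9 genes, *Hmga1*, *Hmga2*, *Hmgb1*, *Hmgb2*, *Hmgb3*, *Igf2bp1*, *Igf2bp2*, *Igf2bp3* and *Lin28b*, chosen by gene symbol from the count tables. The table of cultured mouse RPE cells (mRPE) lists 20910 genes and gave values for 8 of them. The RPE/choroid table lists 25038 genes and gave values for all 9. *Lin28b* in mRPE was not analysed here. Every measured one of the 9 genes passed the filter on low counts, which asked for at least 5 counts in at least 3 libraries.

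The mRPE libraries were 4 of WT cells, 3 of the *Prom1*-KO line KO22 and 2 of the *Prom1*-KO line KO26, where *Prom1* encodes a membrane glycoprotein. All of them came from RPE cells pooled from C57/BL6J mice and immortalized with HPV E6/E7, viral proteins that disable p53 and RB, so WT cells carried these too. The KO lines were made with Cas9 and a guide to *Prom1*, each is 1 line of edited cells, and the labels name KO22 and KO26 only by number. The library names fall into the series 8995 (1 WT, 1 KO22, 1 KO26) and 9262 (3 WT, 2 KO22, 1 KO26). The RPE/choroid libraries were 3 of WT mice and 3 labelled *Prom1*-KO, from *Prom1*fl/fl mice crossed with RPE65-Cre and given tamoxifen by gavage, so that deletion was aimed at the RPE alone. Strain, age and sex of these 6 samples, and whether the WT mice received tamoxifen, are not given in the labels. Nothing in the labels says that the mRPE libraries of a line came from separate cultures, and p-values measure only the spread between these libraries.

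HMGA proteins are small AT-hook proteins that bind the minor groove of AT-rich DNA and shape chromatin, and they are abundant in embryonic and transformed cells. HMGB proteins bend DNA with HMG boxes. HMGB1 also acts outside the cell as a danger signal, and HMGB2 is known from dividing cells. IGF2BP proteins bind mRNAs, many of them carrying m6A, and protect them from decay. LIN28B blocks the maturation of let-7 miRNAs, and let-7 in turn represses several of these mRNAs, of which *Hmga2* is the textbook case. The RPE in the eye is a non-dividing pigmented monolayer.

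The let-7 seed and its matches are shown first, because they divide the 9 genes by a feature that the gene names do not give. The mature miRNAs (RefSeq) are written 5′ to 3′ with bases 2 to 8 in capitals. The let-7 members a, b, c, d, e, f, g, i and k share these capitals, and let-7j does not.
mmu-let-7a-5p: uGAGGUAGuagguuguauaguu
mmu-let-7e-5p: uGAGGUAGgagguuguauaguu
mmu-let-7i-5p: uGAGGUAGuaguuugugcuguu
mmu-let-7j: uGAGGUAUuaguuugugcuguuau

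Sites complementary to that seed, the letters CTACCTC on the sense strand, were searched in the 3′ UTR of the CCDS transcript with the longest UTR (GENCODE vM39, GRCm39, the build that the submitters' notes call mm39). *Hmga2*, *Igf2bp1* and *Lin28b* each held 4 sites. *Hmga1*, *Igf2bp2* and *Igf2bp3* each held 1, and *Hmgb1*, *Hmgb2* and *Hmgb3* held 0. Of 20984 mouse 3′ UTRs, 10.6% held at least 1 site and 12 UTRs held 4 or more. The site nearest the stop codon is printed for each of the 6 genes, in the sense of the mRNA, with the seed match in capitals.
*Hmga2*, chr10:120200128-120200151, minus strand: gccgacattcaatttCTACCTCag
*Igf2bp1*, chr11:95852603-95852626, minus strand: gctgtgcgaagtaaaCTACCTCaa
*Lin28b*, chr10:45257117-45257140, minus strand: acccgggcgggaagtCTACCTCat
*Hmga1*, chr17:27782251-27782274, plus strand: tcctctgttcacaaaCTACCTCtg
*Igf2bp2*, chr16:21878222-21878245, minus strand: acacacaaataaaagCTACCTCag
*Igf2bp3*, chr6:49063720-49063743, minus strand: tgcatttttactcaaCTACCTCag

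Longer UTRs held a site more often. Among UTRs within 20% of the length of that of *Igf2bp1* (6337 bases), 32.8% held a site, compared with 16.9% at the length of that of *Hmga2* (3021 bases) and 8.09% at that of *Hmga1* (1183 bases). A match is a description of the sequence, and mature let-7 was not measured in these poly(A) libraries.

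Library totals were 8076188 to 27537863 counts in mRPE and 48154444 to 61766179 in RPE/choroid. Levels are given as CPM, counts scaled to a common library size and within each table by the trimmed mean of M-values (TMM). In RPE/choroid, *Prom1* was at 48.7, 49.6 and 53.3 CPM in WT and at 49.9, 48.1 and 35.5 CPM in the libraries labelled *Prom1*-KO, so the groups overlapped. *Prom1* in mRPE was not analysed here. One library labelled *Prom1*-KO (replicate 3) stood apart, with a scaling factor of 0.488 compared with 1.07 to 1.33 in the other 5. In mRPE, 3 of 10 RPE markers could be analysed (*Best1*, *Mitf* and *Pmel*), and in WT they summed to 8.18 to 12.8 CPM, while 4 fibroblast markers summed to 10932 to 13916.5 CPM.

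*Hmga1* and *Hmgb2* showed the largest differences of the 8 genes in KO22. *Hmga1* (ENSMUSG00000046711, chromosome 17, 27775449 to 27782648, plus strand) was 9.43-fold higher than in WT, and *Hmgb2* (ENSMUSG00000054717, chromosome 8, 57964687 to 57969276, plus strand) 7.63-fold. *Hmgb3* was 4.16-fold and *Igf2bp2* 2.56-fold higher. To be called, a gene had to differ by more than 1.2 on the log2 scale, in either direction, with an adjusted p below 0.05 in edgeR's quasi-likelihood test with Benjamini-Hochberg adjustment over all genes tested. These 4 of 8 genes were called higher, where 11.4% of the 20455 genes tested were, and 0 of 8 were called lower, where 13.8% were. By the adjusted p alone, 7 of 8 were higher and 1 lower, beside 26.9% and 26.1% of all genes. With the 9262 libraries alone, *Hmga1*, *Hmgb2* and *Hmgb3* were called higher (3 of 8) and 0 lower, beside 12% and 15.3% of the 19450 genes tested in that fit. The median log2 fold change of the 8 genes was 1.22, and that of all genes tested was -0.03.

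**Figure D1:**
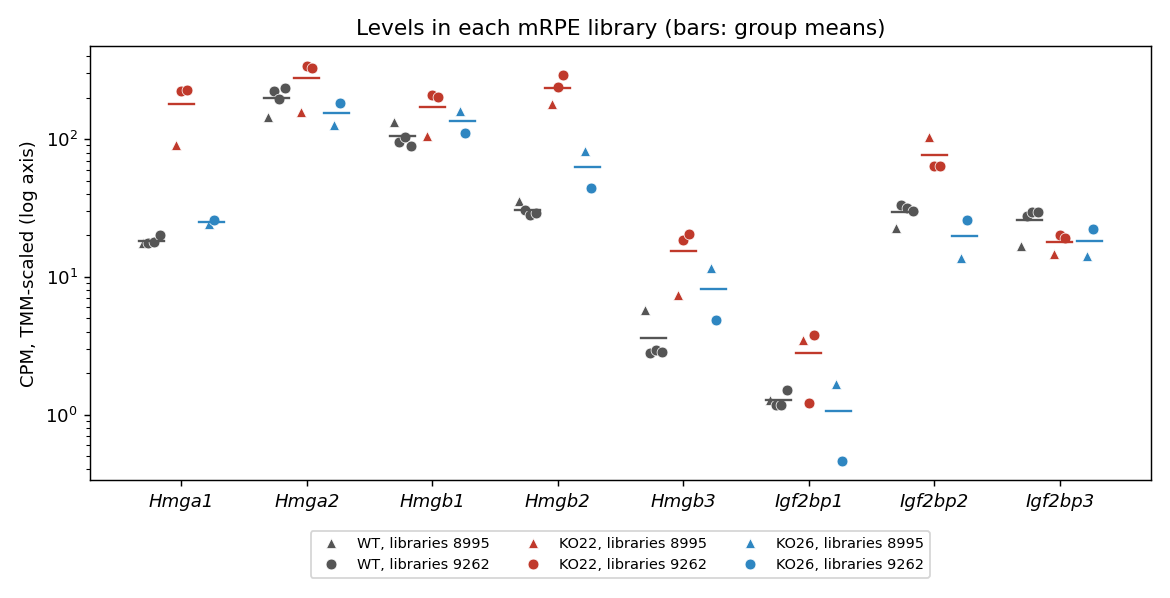
Level of each gene in each mRPE library, in CPM on a log axis, by group (colour) and library series (shape), with a bar at each group mean. *Hmga1* and *Hmgb2* in KO22 lie above all WT and KO26 libraries, whereas *Igf2bp3* lies within or below the WT range.

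Among the HMGA genes, *Hmga1* was at 17.7, 17.5, 17.8 and 20.2 CPM in the 4 WT libraries. It reached 90.5, 222 and 226 CPM in KO22 and stood at 24.1 and 25.9 CPM in KO26. WT was tight, every KO22 library lay above every other library, and the KO22 library of series 8995 was the lowest of its group. The log2 fold change of KO22 over WT was 3.24 (standard error 0.22, edgeR adjusted p = 4.14e-06). It was 2.32 between the single 8995 libraries and 3.57 between the means of the 9262 libraries on the log2(CPM + 0.5) scale. A near copy, *Hmga1b* on chromosome 11, had 0 to 6 counts in WT and 18 to 73 in KO22, and STAR's gene counts leave out reads that map to several places, so reads that fit both genes equally are in neither count.

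*Hmga2*, on chromosome 10 (120197173 to 120313095, minus strand), was the most abundant of the 8 genes in WT by group mean, in CPM as well as per kb of exon. In the 8995 WT library *Hmgb1* was higher per kb, at 19.6 CPM per kb compared with 16.9 for *Hmga2*. The WT libraries had 146, 224, 196 and 235 CPM of *Hmga2*, KO22 had 158, 342 and 328 CPM, and KO26 had 126 and 183 CPM. The lowest value of each group was its 8995 library, and KO22 overlapped with WT. The log2 fold change of KO22 over WT was 0.47 (standard error 0.13, edgeR adjusted p = 0.0122), under the fold limit, and the 968 genes tested on chromosome 10 had a median of -0.54. *Hmga2* was thus 1.01 above its chromosome on the log2 scale. The adjusted p ran from 7.86e-06 to 0.176 over 14 alternative fits. The retrocopy *Hmga2-ps1* had 74 to 257 counts across these libraries.

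Of the HMGB genes, *Hmgb2* and *Hmgb3* were called in KO22 and *Hmgb1* was not. *Hmgb2* was at 35.4, 30.7, 28.3 and 29.0 CPM in WT, at 179, 240.4 and 290.5 CPM in KO22, and at 81.9 and 44.0 CPM in KO26. The 3 groups did not overlap, with KO26 between WT and KO22. The log2 fold change of KO22 over WT was 2.93 (standard error 0.17, edgeR adjusted p = 1.81e-06), and chromosome 8, where the gene lies, had a median of 0.60, the highest of any chromosome. The part of that shift in the difference was not tested, and *Hmgb2* stood 2.33 above it on the log2 scale.

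*Hmgb3*, an X-linked gene of the family (chromosome X, 70591492 to 70605868), was at 5.72 CPM in the 8995 WT library and at 2.81, 2.95 and 2.87 CPM in the 9262 WT libraries. KO22 had 7.35 CPM in series 8995 and 18.5 and 20.4 CPM in series 9262, and KO26 had 11.5 and 4.86 CPM. All KO22 libraries exceeded all WT libraries, but the size differed by series. The log2 difference of KO22 from WT was 0.34 within 8995 and 2.56 within 9262, and the fit over both gave 2.06 (standard error 0.39, edgeR adjusted p = 0.00175). Within 8995, *Hmgb3* was higher in KO26 than in KO22.

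*Hmgb1*, the most abundant HMGB gene in WT, was at 132, 95.3, 104.6 and 89.9 CPM in WT. KO22 had 105.3, 208.7 and 202.9 CPM and KO26 had 160 and 111 CPM, so all 3 groups overlapped. The direction depended on the series, since the log2 difference of KO22 from WT was -0.33 in 8995 and 1.09 in 9262. The fit over both gave 0.69 (standard error 0.23, edgeR adjusted p = 0.0309), under the fold limit.

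The promoters of *Hmgb2* and *Hmgb3* are printed because these HMGB genes were called in KO22. They hold the letters CCAAT, the core bound by NF-Y, which is common in promoters of cell cycle genes. The first listed start of *Hmgb1*, a gene not called and not printed, holds CCAAT as well. Each window runs from 250 bases before to 50 after the RefSeq start (GRCm38.p6), and CCAAT on either strand is in capitals. *Hmgb2* held 4, *Hmgb3* 3 and the first listed start of *Hmgb1* 3, while its other start held 0. *Igf2bp3* and *Lin28b* held 1, and *Hmga1*, *Hmga2* and *Igf2bp2* held 0. The promoter of *Igf2bp1* was not analysed here. The same windows were also searched for a motif of E2F, a transcription factor of the cell cycle, and each held 0.
*Hmgb2*, chr8:57511593-57511892, plus strand: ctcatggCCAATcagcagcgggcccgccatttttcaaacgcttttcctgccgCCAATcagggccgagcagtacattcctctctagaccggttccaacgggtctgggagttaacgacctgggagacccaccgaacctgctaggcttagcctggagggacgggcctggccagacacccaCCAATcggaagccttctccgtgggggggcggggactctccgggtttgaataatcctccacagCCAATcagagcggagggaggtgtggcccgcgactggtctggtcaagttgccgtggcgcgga
*Hmgb3*, chrX:71555667-71555966, plus strand: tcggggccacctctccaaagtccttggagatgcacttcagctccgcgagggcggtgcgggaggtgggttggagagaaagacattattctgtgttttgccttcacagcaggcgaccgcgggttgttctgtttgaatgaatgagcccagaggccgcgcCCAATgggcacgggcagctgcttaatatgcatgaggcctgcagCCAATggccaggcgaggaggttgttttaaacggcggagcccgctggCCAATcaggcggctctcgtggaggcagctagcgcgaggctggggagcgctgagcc

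At least 1 CCAAT occurred in 37.4% of 32851 mouse promoters of this length, and at least 3 in 3.37%. The E2F motif occurred in 2.26% of them. The genes with the largest fold changes in KO22 were *Hmga1*, with no CCAAT in this window, and *Hmgb2*, with 4.

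Among the IGF2BP genes, only *Igf2bp2* was called. *Igf2bp2* (chromosome 16, 21877759 to 21982499, minus strand) was at 22.5, 33.5, 31.7 and 30.2 CPM in WT, at 104, 63.5 and 63.6 CPM in KO22, and at 13.8 and 25.8 CPM in KO26. KO22 lay above all other libraries, and the 8995 KO22 library was the highest while the 8995 WT and KO26 libraries were the lowest of their groups. The log2 fold change of KO22 over WT was 1.36 (standard error 0.21, edgeR adjusted p = 0.000529). It was 1.00 with the 9262 libraries alone (edgeR adjusted p = 3.66e-09), under the fold limit, and leaving out the 8995 WT or the 8995 KO22 library gave 0.99 and 1.01.

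*Igf2bp1* was near the lower end of detection, with 12 to 32 counts in WT, 25 to 49 in KO22 and 36 and 4 in KO26. These counts are 1.27, 1.17, 1.18 and 1.51 CPM in WT, 3.46, 1.21 and 3.80 CPM in KO22, and 1.67 and 0.463 CPM in KO26. KO22 overlapped with WT, and the log2 fold change was 1.07 (standard error 0.40, edgeR adjusted p = 0.0465). Over 14 alternatives it ran from 0.55 to 1.47, with adjusted p from 0.00481 to 0.342.

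*Igf2bp3* went the other way. It was at 16.8, 27.7, 29.4 and 29.5 CPM in WT, at 14.7, 20.2 and 19.1 CPM in KO22, and at 14.2 and 22.4 CPM in KO26. Within each series both lines were below every WT library. The log2 fold change of KO22 over WT was -0.45 (standard error 0.13, edgeR adjusted p = 0.0151), and the 1082 genes tested on its chromosome 6 had the same median, -0.45. The part of the chromosome in this difference was not tested.

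**Figure D2:**
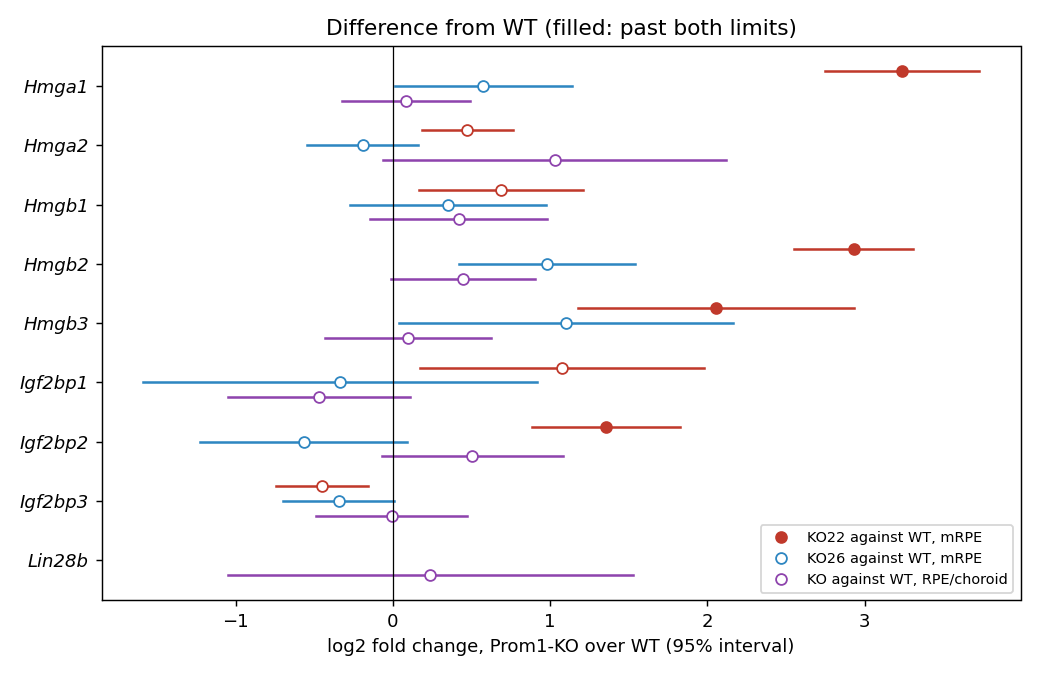
Log2 fold change of each gene over WT with its 95% interval, for KO22, KO26 and RPE/choroid labelled *Prom1*-KO; filled points passed both limits. Only KO22 has filled points, for *Hmga1*, *Hmgb2*, *Hmgb3* and *Igf2bp2*, and KO22 and KO26 share the same WT libraries.

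Line KO26 was compared with WT in a fit over all 9 mRPE libraries, and its log2 fold changes lay between -0.57 and 1.10. The study left both KO26 libraries out of its own testing, since they lay apart in a principal component analysis. Of the 8 genes, 0 were called higher, where 1.21% of the 20737 genes tested were, and 0 lower, where 0.719% were. DESeq2 also called 0 of the 8. At an unadjusted p under 0.05, 3 of the 8 were higher in edgeR's test, *Hmga1*, *Hmgb2* and *Hmgb3*, beside 11.1% of all genes. *Hmgb2* had a log2 fold change of 0.98 (95% interval 0.42 to 1.54, edgeR adjusted p = 0.0624), and both KO26 libraries were above all 4 WT libraries. *Hmga1* had 0.57 (95% interval 0.01 to 1.14, edgeR adjusted p = 0.24), again with both libraries above WT. *Igf2bp2* had -0.57 (95% interval -1.22 to 0.09, edgeR adjusted p = 0.313). Without the 9262 library of KO26, *Hmgb2* was called, at 1.48 (edgeR adjusted p = 0.0301), with a single KO26 library taken to vary like the other groups.

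The test of KO22 against KO26 gives the difference between the lines itself. *Hmga1* was higher in KO22 by 2.68 on the log2 scale (standard error 0.29, edgeR adjusted p = 9.11e-05), *Igf2bp2* by 1.99 (standard error 0.32, adjusted p = 0.000961) and *Hmgb2* by 1.96 (standard error 0.29, adjusted p = 0.000527). These 3 of 8 were called higher, beside 7.56% of all genes, and 0 lower, beside 10.7%. Each of the 3 stayed past both limits in 15 of 15 alternative fits. *Hmgb3*, at 1.04 (95% interval -0.13 to 2.21, edgeR adjusted p = 0.154), did not pass.

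The make-up of each family differed between the groups as well. To compare genes, CPM was divided by the exon length of each gene (CPM per kb). In WT mRPE, *Hmga1* made up 14.9% ± 2.52 (SD, n = 4) of the HMGA level, with *Hmga2* the rest. The share was 23.6% ± 3.86 (n = 2) in KO26 and 54.2% ± 2.37 (n = 3) in KO22, and the 3 groups did not overlap. *Hmgb2* made up 32.1% ± 2.39 of the HMGB level in WT, 41.2% ± 3.71 in KO26 and 67.7% ± 4.51 in KO22, also without overlap. *Igf2bp2* made up 54.6% ± 2.78 of the IGF2BP level in WT, 52.1% ± 4.24 in KO26 and 79.5% ± 6.05 in KO22, where WT and KO26 overlapped and KO22 lay above both. No test was run on the shares, which follow from the same counts.

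**Figure D3:**
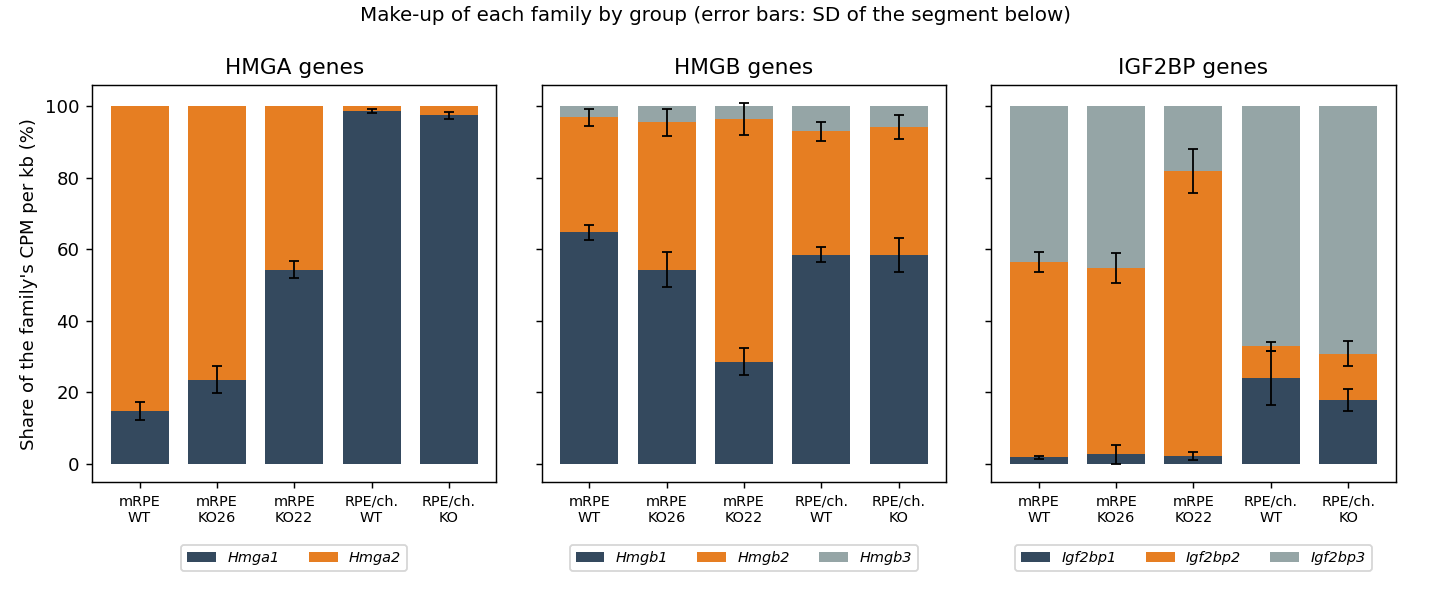
Share of each gene in the summed CPM per kb of its family, in percent, as group means with error bars of 1 SD on the segment below. In KO22, *Hmga1*, *Hmgb2* and *Igf2bp2* lead their families. In WT mRPE and KO26, *Hmga2*, *Hmgb1* and *Igf2bp2* lead, and in both RPE/choroid groups *Hmga1*, *Hmgb1* and *Igf2bp3* lead.

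Other genes tied to these proteins were read from lists of textbook members. Proliferation genes were higher in both lines. In KO22, 21 of 23 were called higher (median log2 fold change 2.22) and in KO26 9 of 23 (median 1.22), beside the 11.4% and 1.21% of all genes given above. With the 9262 libraries alone, 22 of 23 were called higher in KO22, beside 12% of all genes. The mitotic cyclins *Ccnb1* and *Ccnb2* and the checkpoint kinase *Bub1* had log2 fold changes of 2.50, 2.56 and 2.42 in KO22 and of 1.28, 1.21 and 1.55 in KO26, and the cyclin *Ccna2* had 2.38 in KO22 and, without passing both limits, 1.17 in KO26. The list summed to 1174 to 1497 CPM in WT, 2513 to 3186 CPM in KO26 and 3271 to 5628 CPM in KO22. The sum rose from WT to KO26 to KO22 without overlap, and so did *Hmgb2* and *Hmga1*. Group means of *Hmgb1* and *Hmgb3* had the same order, with overlap between groups. Those of *Hmga2*, *Igf2bp1*, *Igf2bp2* and *Igf2bp3* did not. The part of proliferation in the differences of these genes was not tested. Markers of other cell types differed too. The 4 fibroblast markers measured summed to 4104 to 5869 CPM in KO22 and 15096 to 18040 CPM in KO26. In KO22, 3 of 4 were called lower, beside 13.8% of all genes. *Col1a1*, *Col1a2* and *Pdgfra* had -1.50, -1.74 and -1.51, while *Dcn* went the other way, at 0.61, without passing. Smooth muscle and pericyte markers summed to 931 to 1951 CPM in WT, 1184 to 2169 CPM in KO26 and 260.0 to 362 CPM in KO22. Here too 3 of 4 were called lower in KO22, beside the same 13.8%. The 3 RPE markers summed to 38.7 CPM in the 8995 library of KO22, to 18.2 and 15.5 CPM in its 9262 libraries and to 5.38 to 9.14 CPM in KO26. In KO22, 1 of 3 was called higher, *Mitf* at 1.41, and 0 lower, beside 11.4% and 13.8% of all genes. *Best1* had 0.80 and *Pmel* -0.40 without passing. Of 5 endothelial markers, 2 were called lower and 1 higher in KO22, beside 13.8% and 11.4% of all genes. *Kdr* fell by 6.22 and *Tek* by 2.38, and *Plvap* was higher at 1.82, while *Pecam1* had -0.29 and *Vwf* 1.93 without passing. Their part in the values of the 8 genes was not tested either.

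Further HMG genes were higher in KO22 for 4 of 11, *Hmgn1*, *Hmgn2*, *Hmgn5* and *Ssrp1*, and lower for 0, beside 11.4% and 13.8% of all genes. The nucleosome binders *Hmgn1* and *Hmgn2* had log2 fold changes of 1.39 (edgeR adjusted p = 9.42e-05) and 1.83 (adjusted p = 3.45e-05), and *Ssrp1*, a subunit of the histone chaperone FACT, had 1.54 (adjusted p = 6.22e-05). *Ubtf*, which drives rRNA transcription, had 0.68, under the fold limit. In KO26, 0 of 11 were called, beside 1.21% of all genes higher and 0.719% lower. Of 5 receptors of HMGB1 tested, 1 was called lower in KO22 and 0 higher, beside 13.8% and 11.4% of all genes. The 1 was *Havcr2* (TIM-3), at -1.51 (edgeR adjusted p = 0.000931).

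Of 19 textbook let-7 targets outside the 9 genes, 3 were called higher and 5 lower in KO22 (median -0.12), and 0 in KO26. All genes tested had 11.4% higher, 13.8% lower and a median of -0.03 in KO22, and 1.21% higher and 0.719% lower in KO26. With the 9262 libraries alone the counts in KO22 were 3 and 6, beside 12% and 15.3% of all genes. *Cdk6*, a G1 kinase, had a log2 fold change of 1.67, and the GTPase *Nras* had 1.27. The growth factor receptor *Igf1r* fell by 1.72 and the zinc finger gene *Plagl1* fell by 5.53 on the log2 scale. A seed match was found in the 3′ UTR of 13 of these 19. *Igf1r* held 2, *Nras* 1, and *Cdk6* and *Plagl1* 0. *Trim71*, also a let-7 target, was counted with the processing genes below. Of the 9 genes themselves, *Hmga2* and *Igf2bp1*, with 4 sites each, had 0.47 and 1.07. *Hmga1*, *Igf2bp2* and *Igf2bp3*, with 1 site each, had 3.24, 1.36 and -0.45, and *Hmgb1*, *Hmgb2* and *Hmgb3*, with 0, had 0.69, 2.93 and 2.06.

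Of 11 genes for let-7 processing and decay, 1 was called higher and 1 lower in KO22, beside the same 11.4% and 13.8%, and 2 higher and 0 lower with the 9262 libraries alone, beside 12% and 15.3%. *Trim71*, a let-7 target encoding an E3 ligase of early embryos, had 3 to 6 counts in WT, 88 to 102 in KO22 and 21 to 28 in KO26. Its log2 fold change was 4.63 in KO22 (standard error 0.37, edgeR adjusted p = 1.08e-05) and 2.68 in KO26 (standard error 0.50, edgeR adjusted p = 0.0196), and its UTR held 4 seed matches. *Dis3l2*, the exonuclease that degrades uridylated pre-let-7, fell by 1.21 (edgeR adjusted p = 0.000107). *Ago2* had 0.81 and the let-7c host transcript *Mir99ahg* -1.02, both under the fold limit. The let-7 gene *Mirlet7c-1*, with 5 to 20 counts, was at 0.79 to 1.29 CPM in WT and 0.43 to 0.58 CPM in KO22. KO26 had 0.42 and 0.93 CPM. *Mirlet7a-2* and *Mirlet7g*, at 0 to 19 counts in WT and KO22, overlapped between these groups. Levels of these let-7 genes are given without a test.

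Of 11 transcripts known to be bound by IGF2BP proteins, 2 were called higher and 3 lower in KO22, beside 11.4% and 13.8% of all genes. With the 9262 libraries alone the counts were 4 and 3, beside 12% and 15.3%. In KO26, 0 of 11 were called, beside 1.21% of all genes higher and 0.719% lower. *H19*, a long non-coding RNA, was at 19.1 ± 4.55 CPM in WT (n = 4), 19.1 ± 8.48 CPM in KO26 (n = 2) and 0.151 ± 0.12 CPM in KO22 (n = 3). Its imprinted neighbour *Igf2*, which gave the family its name and is named here after its values were seen, had 11 to 23 counts in WT, 10 and 43 in KO26 and 0 to 1 in KO22. *Cd44*, the hyaluronan receptor, was higher at 1.68 (edgeR adjusted p = 2.28e-06), and *Btrc* was lower at -1.35 (adjusted p = 1.12e-05). *Myc* had 1.15 (adjusted p = 3.15e-05), just under the fold limit.

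**Figure D4:**
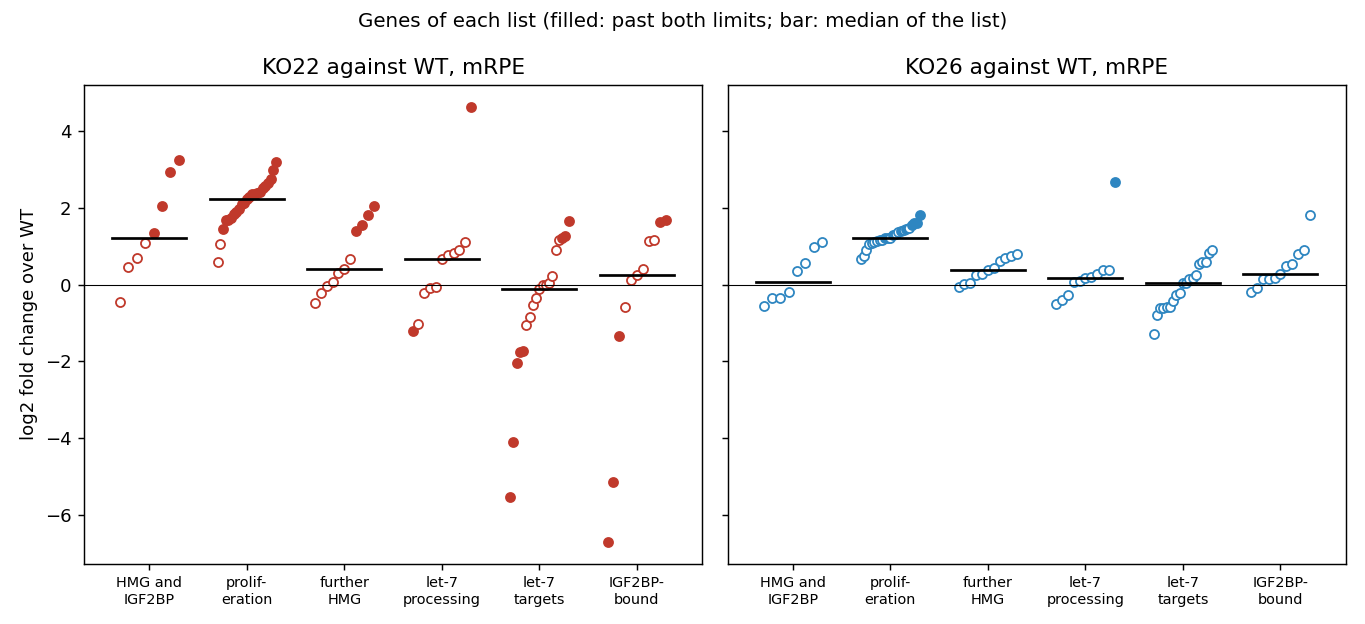
Log2 fold change over WT of every gene tested of each list, in KO22 and KO26, with a bar at the median of the list; filled points passed both limits. Proliferation genes lie above 0 in both lines, and the let-7 target and IGF2BP-bound lists reach from below -5 to about 1.7 in KO22.

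Over the 9 mRPE libraries, the genes closest in pattern were named by Pearson's r of log2 CPM, as a description. These libraries form 3 groups and 2 series, and r mixes differences between them with those within. *St7*, *Gm43314* and *Smpdl3b* were closest to *Hmga1* (r from 0.993 to 0.997). *Kars1*, *Nup35* and *Lsmem2* were closest to *Hmgb2* (r from 0.995 to 0.997), *Hsd17b12*, *Txlna* and *Jpt2* to *Hmgb3* (0.993 to 0.994), and *Gm49524*, *Cxcl1* and *Enpp2* to *Igf2bp2* (0.993 to 0.997). For *Hmgb1* they were *Cfap298*, *Gm15964* and *Hus1* (0.979 to 0.992), for *Hmga2* *Epb41*, *Arhgef10l* and *Gm11839* (0.957 to 0.969), for *Igf2bp3* *Gm38218*, *Gm44097* and *Gm55876* (0.974 to 0.975), and for *Igf2bp1*, with its low counts, *Spmip8*, *Egr3* and *Gas8* (0.918 to 0.94).

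In the eye, levels of 8 of the 9 genes could be set beside those in WT mRPE, since *Lin28b* was not analysed in mRPE. The tables were scaled separately, so the values stand side by side with no test. *Hmga2*, at 200.2 ± 39.8 CPM in WT mRPE, was at 0.101 ± 0.0305 CPM in WT RPE/choroid (n = 3), from 5 to 9 counts. *Igf2bp2* was at 29.5 ± 4.82 CPM and at 1.05 ± 0.0744 CPM. *Igf2bp1* was lower in culture, at 1.28 ± 0.158 CPM compared with 3.70 ± 1.01 CPM. The mean CPM of *Hmga1*, *Hmgb1*, *Hmgb2* and *Igf2bp3* was 2.89 to 4.74 times as high in culture. *Hmgb3* overlapped, at 2.81 to 5.72 CPM in WT mRPE and 2.01 to 3.21 CPM in WT RPE/choroid. *Hmga1* made up 98.6% ± 0.6246 of the HMGA level per kb in WT RPE/choroid, and *Igf2bp3* 67.2% ± 7.97 of the IGF2BP level. *Hmgb1* made up 58.5% ± 2.01 of the HMGB level there, compared with 64.7% ± 2.03 in WT mRPE.

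**Figure D5:**
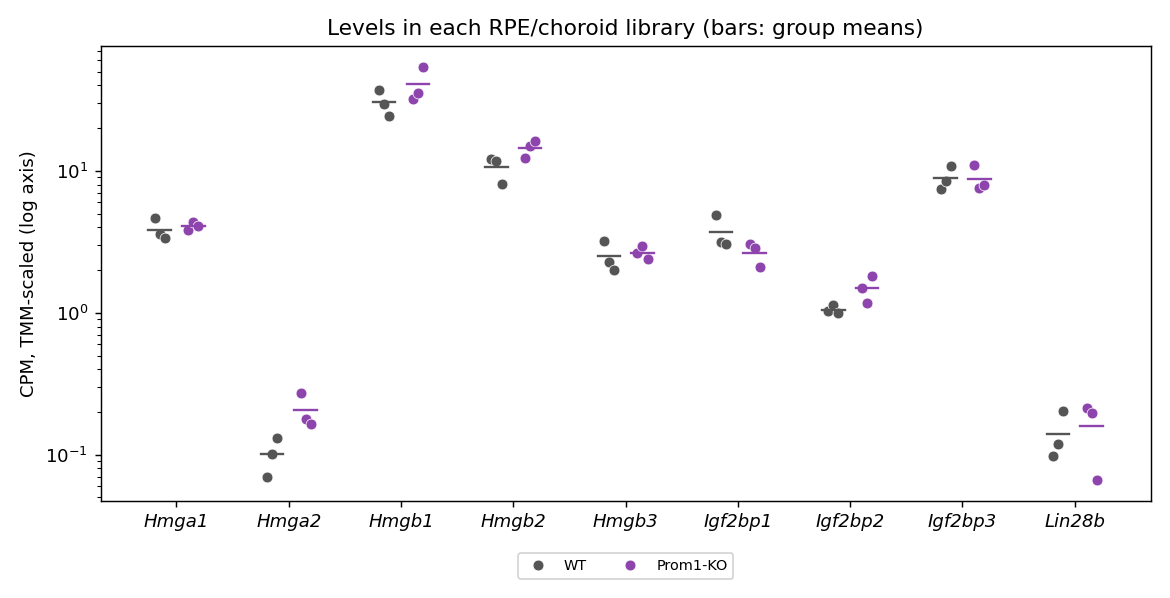
Level of each of the 9 genes in each RPE/choroid library, in CPM on a log axis, with a bar at each group mean. *Hmgb1* is the highest gene and *Hmga2* and *Lin28b*, at 2 to 14 counts, the lowest. In TMM-scaled CPM, WT and the libraries labelled *Prom1*-KO overlap for all but *Hmga2*, *Igf2bp1*, *Igf2bp2* and *Hmgb2*.

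Between RPE/choroid of WT and that labelled *Prom1*-KO, 0 of the 9 genes were called higher and 0 lower by edgeR, and 0 by DESeq2. At an unadjusted p under 0.05, 0 of the 9 passed edgeR's test. Of all 24926 genes tested, 0% were called higher and 0.189% lower, 993 were higher and 1075 lower at an unadjusted p under 0.05, and DESeq2 called 83 higher and 188 lower. In bulk tissue, fewer cells of a type and less RNA per cell cannot be told apart.

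The largest log2 fold change among the 9 was that of *Hmga2*, at 1.03 (95% interval -0.06 to 2.12, edgeR adjusted p = 0.635). Its counts were 5, 6 and 9 in WT and 14, 11 and 5 in the libraries labelled *Prom1*-KO, or 0.0701, 0.101 and 0.131 CPM and 0.272, 0.180 and 0.166 CPM. *Igf2bp2* was at 1.02, 1.13 and 0.991 CPM in WT and at 1.49, 1.18 and 1.82 CPM in the other group, a log2 fold change of 0.51 (95% interval -0.07 to 1.08, edgeR adjusted p = 0.667). *Igf2bp1* had 4.87, 3.18 and 3.06 CPM in WT and 3.05, 2.84 and 2.09 CPM in the other group, a log2 fold change of -0.47 (95% interval -1.05 to 0.11, edgeR adjusted p = 0.69). In these 3 genes the groups did not overlap in TMM-scaled CPM, and every interval held 0. The third value of the other group came from the library that stood apart and rests on its scaling factor of 0.488. That library had the largest RPE/choroid total, 61766179 counts, but 5 counts of *Hmga2* and 55 of *Igf2bp2*. The WT libraries had 5 to 9 and 67 to 73 counts. *Igf2bp1*, with 63 counts there compared with 188 to 347 in WT, was lower before scaling too.

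*Hmgb2* was at 12.1, 11.8 and 8.07 CPM in WT and at 12.3, 14.99 and 16.2 CPM in the libraries labelled *Prom1*-KO, a log2 fold change of 0.44 (95% interval -0.01 to 0.90, edgeR adjusted p = 0.619), again with no overlap in TMM-scaled CPM. The 16.2 CPM came from 489 counts in the library that stood apart, compared with 554 to 860 counts in WT, and rests on the same scaling factor. *Hmgb1* was at 37.1, 29.8 and 24.4 CPM and at 32.1, 35.7 and 54.3 CPM, the last in the library that stood apart. The groups overlapped, and the log2 fold change was 0.42 (95% interval -0.15 to 0.98, edgeR adjusted p = 0.715). *Hmga1*, *Hmgb3*, *Igf2bp3* and *Lin28b* had log2 fold changes of 0.08, 0.09, -0.01 and 0.24. *Lin28b* itself had 7, 7 and 14 counts in WT and 11, 12 and 2 in the other group, and the interval of its log2 fold change reached from -1.05 to 1.52.

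The RPE genes *Rpe65*, the visual cycle isomerase, and *Lrat*, the retinol acyltransferase, were called lower, at -6.06 and -3.43 (edgeR adjusted p = 0.0191 and 0.00445). They were 2 of 10 RPE markers called lower, beside 0.189% of all genes, and 0 were called higher, beside 0%. The median of the 10 was -0.74. Without passing, *Ttr* had -3.01, *Rlbp1* -2.07, *Mitf* -0.82 and *Otx2* -0.67. *Best1*, *Tyrp1* and *Pmel* had -0.25, -0.16 and -0.15, and *Dct* had 0.37. *Rpe65* was at 203.8 to 287.2 CPM in WT and 1.13 to 5.97 CPM in the other group, and all 10 RPE markers summed to 1980 to 2689 CPM in WT and 1173 to 1313 CPM in the libraries labelled *Prom1*-KO. Summed photoreceptor markers reached from 40.8 to 1177 CPM in WT and from 21.0 to 576 CPM in the other group. Endothelial markers summed to 73.8 to 153.9 CPM and to 43.3 to 69.1 CPM, with 0 of 6 called, and proliferation genes to 81.7 to 120.5 CPM and to 104.4 to 148.7 CPM. Their part in the values of the 9 genes was not tested. Without the library that stood apart, 0 of the 9 genes were called and the log2 fold changes of *Hmgb1* and *Hmgb2* were 0.14 and 0.34.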

How the data were processed

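Poly(A) RNA was sequenced, and the authors trimmed reads with Trim Galore (0.6.7), aligned them with STAR to mm39 and deposited raw read counts per gene in a table for mRPE and another for RPE/choroid. The authors' processing notes also name DESeq2. The study's methods name STAR's own gene counting, which takes reads that map to 1 place. The quasi-likelihood test of edgeR (4.0.16, R 4.3.3) was run on every gene that reached 5 counts in 3 or more libraries, with TMM scaling and, for mRPE, a term for the library series (8995 or 9262). KO22 was compared with WT in 7 libraries, and KO26 with WT and with KO22 in a fit of all 9. Adjusted p-values are Benjamini-Hochberg over all genes tested. Alternatives were DESeq2 (1.42.0), its size factors, other filters, no series term, other sets of libraries and each library left out. The edgeR steps were tested on simulated data. The 9 genes and all lists were chosen with earlier results of these data known. Every one of the 9 genes is named, with up to 4 of each list by smallest adjusted p in KO22 and the 3 most correlated genes for each of the 8 measured in mRPE. *Hmgn5*, *Igf2*, the let-7 genes *Mirlet7c-1*, *Mirlet7a-2* and *Mirlet7g* and the cell type markers were named beyond that rule, after their values were seen. Counting error is largest for *Igf2bp1* in mRPE and *Hmga2* and *Lin28b* in RPE/choroid. Intervals cover these libraries only.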

Additional observations from a re-analysis of the deposited data

Results flagged for a closer look

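Among the 4 WT mRPE libraries, 3 of the 8 genes had 1 library far from the others, by the gap to the nearest library over the whole range. Chance alone flags about 1 in 20 groups. *Hmga1* was highest in WT replicate 4, with a ratio of 0.895. *Hmgb3* was highest in WT replicate 1, with a ratio of 0.954, and *Igf2bp3* was lowest in WT replicate 1, with a ratio of 0.859, and that library is the WT library of series 8995.

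KO22 and KO26 differed in the test between the lines for *Hmga1*, by 2.68 on the log2 scale, for *Igf2bp2*, by 1.99, and for *Hmgb2*, by 1.96. In each of the 3 genes KO22 was the higher line in both library series.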

How the results depend on the processing

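In KO22 against WT, *Hmga1*, *Hmgb2* and *Hmgb3* passed both limits in 14 of 14 alternatives. *Igf2bp2* passed in 11, and had 1.00 with the 9262 libraries alone (an alternative chosen after seeing the data). *Igf2bp1* passed in 1 of 14, without KO22 replicate 2, at 1.47. Dropping the fold limit gave 7 genes higher and 1 lower. In KO26 against WT, leaving out 1 library at a time gave 0 to 1 genes called higher, the 1 being *Hmgb2* without KO26 replicate 2. Without that library *Igf2bp1* turned to 0.20 in KO26 against WT (range over libraries left out -1.38 to 0.20), and *Hmgb1* to -0.0020 in KO22 against KO26 (-0.0020 to 0.88). In KO22 against KO26, *Igf2bp1* passed in 2 of 15 alternatives, by DESeq2 at 1.52 and without KO22 replicate 2 at 1.71 (range 0.88 to 2.45), and *Hmgb3* without KO22 replicate 1 at 1.91. In RPE/choroid, 0 genes passed in any alternative. Without WT replicate 3, *Hmga1* turned to -0.0106 (range -0.0106 to 0.23), *Hmgb3* to -0.0398 (range -0.0398 to 0.32) and *Igf2bp3* to 0.15 (range -0.21 to 0.15), and *Igf2bp3* was also above 0 without KO replicate 2 (0.09) and without KO replicate 3 (0.05). The cause of these changes was not tested. No paired analysis was possible because the replicate numbers were given here in accession order and the labels carry none.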
